A study of Mus musculus with 10 samples.

Results

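Wnt pathway transcripts were examined for N6-methyladenosine (m6A) in 3T3-L1, the mouse line of fibroblasts that turns into fat cells when given a hormone cocktail. The set comprised 40 named genes of the 21951 protein-coding genes in the annotation: 4 ligands, 12 receptors, 7 cytoplasmic components, 9 nuclear components, 6 inhibitors and 2 genes of planar cell polarity. A gene was credited with a peak when the peak lay in its exons on its own strand. In all, 17 of the 40 genes (42.5%) had such a peak in at least 1 list and 23 (57.5%) had none.

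The libraries came from MeRIP-seq, the sequencing of immunoprecipitated methylated RNA, in which an m6A antibody enriches the fragments that carry the mark (the IP). These are read beside unenriched RNA (the input), and a peak is a stretch where the IP exceeds the input. There were 10 libraries, an IP and an input for each of 5 conditions. Cells given the solvent DMSO were preadipocytes (DMSO Pre), preadipocytes in mitotic clonal expansion, the stage at which arrested cells divide again (DMSO MCE), or cells labelled as mature adipocytes (DMSO Diff). In the other conditions 20 µM rhein, an anthraquinone known to inhibit FTO, an enzyme that removes m6A, was present from day 0 to day 3, and cells were collected at the same later stages (rhein MCE and rhein Diff). The study names a single line, 3T3-L1, while the source labels carry a different number for each library, 3T3-L2 to 3T3-L11, and were not used. The labels give the same induction cocktail for all samples.

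With single libraries, no result below has a replicate error and no test was made. The intervals given (95%, Wilson) reflect only the counting of peaks. Read numbers are not in the lists, so the depth is unknown, and unmethylated genes cannot be told apart from genes with too few reads. The lists held between 2824 and 5128 peaks, with the most in DMSO MCE. The adipocyte markers Pparg, Cebpa, Fabp4, Adipoq, Plin1, Lpl and Cd36 had no exonic peak in any list, DMSO Diff included, whereas 2 or 3 of 5 preadipocyte markers had a peak in each list. A peak list does not measure expression, so the labelled stage could not be checked from these markers.

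The rhein MCE and rhein Diff lists held the same Wnt pathway peaks. The single value each list gives for a peak is a score that is higher for stronger calls, and ranks below count from the highest score. All 17 peaks had identical spans in both lists, and their scores differed by at most 0.0156, with a median difference of 0.00181. In no other pair of lists compared did more than 3 Wnt pathway peaks have an identical span. These lists were therefore counted as 1 sample, shown by the list labelled rhein MCE, which leaves 4 distinct lists. From the lists it cannot be told whether the shared list came from the MCE sample, the differentiation sample or both, so every comparison of rhein MCE with DMSO MCE below rests on that label.

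In the canonical branch of the pathway, secreted Wnt ligands bind Frizzled receptors and the co-receptors LRP5 and LRP6 at the membrane. Dishevelled proteins then restrain a destruction complex built on Axin and APC, beta-catenin accumulates, and in the nucleus it joins TCF/LEF factors and the co-activators BCL9, BCL9L and Pygopus. Active Wnt signalling is known to hold preadipocytes undifferentiated, with Wnt10b as the best known ligand in that role.

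Peaks were searched on the transcript strand for GGAC, the core of the sequence recognised by the m6A methyltransferase complex. The 29-base stretches below, from the RefSeq copy of GRCm38 (mm10), cover some sites that recurred across lists, and the Ryk peak, which did not. In capitals stands GGAC or, where the peak held none, the nearest close form. Those of Bcl9l (the stretch under the highest-ranked peak), Lrp6, Pygo2 and Ryk followed a general rule, and the others were chosen after the values had been seen. The same rule gave the recurrent sites in the Ctnnb1 5′ UTR and the Lrp5 3′ UTR, which held no GGAC and are not printed. Further recurrent sites in Bcl9, Bcl9l, Fzd1 and Lrp5 are not printed either. These sites held GGAC, but not under every peak. The DMSO MCE peak of the Fzd1 site near the stop codon held none. Neither did a DMSO MCE peak of Bcl9l at chr9:44508924-44508998. The Bcl9l stretches lie at chr9:44506264-44506292, chr9:44506907-44506935 and chr9:44507294-44507322 on the plus strand in the coding sequence (CDS), and their GGAC was under a peak in 4 of 4 lists.
Bcl9l, upstream site: gaggctgggccaGGACagtctgacgcccg
Bcl9l, middle site: gccatgttcccgGGACagatgactggagg
Bcl9l, downstream site: tctgggggccagGGACcttaccaagccat
The co-receptor stretches lie on the minus strand in the CDS, at chr6:134541753-134541781 for Lrp6 and chr19:3630201-3630229 for Lrp5, with the GGAC under a peak in 2 lists each.
Lrp6: aaaaattgtactGGACagattctgaaact
Lrp5: tggcattgctgtGGACtgggtcgcccgga
The Frizzled stretches lie at chr5:4756698-4756726 on the minus strand in the CDS of Fzd1 and at chr1:59484912-59484940 on the plus strand in the 3′ UTR of Fzd7, with the GGAC again under a peak in 2 lists each.
Fzd1: tctgggggagaaGGACtgcggcgcaccct
Fzd7: ctaagacttgcaGGACgatgctaactgtg
No GGAC lay under any peak of Pygo2, at chr3:89433432-89433460 by the stop codon, or under the highest-ranked peak of Ryk, at chr9:102907892-102907920 in the 3′ UTR.
Pygo2: atctttgcctcaAGACcaaggagatccag
Ryk: tttgtttttttaAAACacttgaaaaatta

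The first question was how many Wnt pathway transcripts carried a peak at each stage and with rhein. In DMSO Pre, 8 of 40 genes had a peak (20%), against 6.89% of all protein-coding genes. In DMSO MCE there were 13 genes (32.5%), against 12.5% of all. DMSO Diff had 8 genes (20%) against 6.69%, and the rhein lists had 8 (20%) against 7.45% for rhein MCE and 7.46% for rhein Diff. Thus DMSO MCE had the most Wnt pathway genes with a peak, as it had the most genes of any kind.

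Wnt pathway transcripts are long, and longer transcripts have more room for peaks. The median longest coding transcript was 4285 bases for the 40 genes and 2683 bases for all protein-coding genes. Among the 5257 protein-coding genes with at least the former length, the share with a peak was 14% for DMSO Pre, 21.8% for DMSO MCE, 12.8% for DMSO Diff and 13.2% for rhein MCE. The Wnt pathway shares were above these too, by a smaller margin. Over all 4 lists, 42.5% of the Wnt pathway genes had a peak, against 16.6% of all protein-coding genes and 27.7% of the long ones. The genes with a peak (median 4532 bases) were little longer than those without (4260 bases). The 40 genes were chosen with earlier results of these data known, so a higher share may be built into the set. The comparison genes were taken whether or not they are expressed in these cells, and the difference was not tested.

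**Figure D1:**
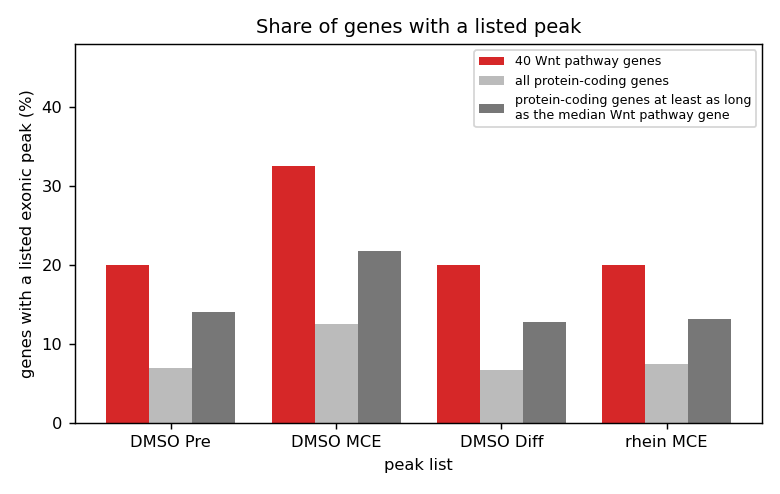
Share of genes (%) with a listed exonic peak in each of the 4 distinct lists, for the 40 Wnt pathway genes (red), all 21951 protein-coding genes (light grey) and the 5257 protein-coding genes at least as long as the median Wnt pathway gene (dark grey). The red bar is the tallest in each list, from 20% to 32.5%, with the long genes between 12.8% and 21.8%. The 40 genes were chosen with earlier results of these data known, and the grey sets include genes whatever their expression.

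The list lengths enter these counts. DMSO Pre had 13 Wnt pathway peaks among 2824, DMSO MCE 31 among 5128, DMSO Diff 19 among 2944 and rhein MCE 17 among 3069. When each list was cut to its 2824 peaks of highest score, DMSO MCE had 9 Wnt pathway genes and 17 peaks, and lost Wnt5a, Fzd2, Fzd4 and Bcl9. At that length the 4 lists had between 7 and 9 genes each, and the higher number in DMSO MCE had nearly gone. Of all protein-coding genes, the share with a peak was then 7.55% for DMSO MCE, 6.47% for DMSO Diff and 6.92% for rhein MCE.

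By role, receptors and nuclear components carried most of the peaks. Of 12 receptors, 7 had a peak in some list, and of 9 nuclear components 6 did. Of 7 cytoplasmic components 3 had a peak, and of 4 ligands 1. None of the 6 inhibitors or the 2 planar polarity genes had one. Of all protein-coding genes 16.6% had a peak in some list, and of the long ones 27.7%. With so few genes, the absence in these 2 roles was not set apart from those shares. Receptors had 5 peaks from DMSO Pre, 15 from DMSO MCE, 8 from DMSO Diff and 8 from rhein MCE, and nuclear components had 6, 13, 11 and 9 in the same order. Of the nuclear peaks, Bcl9l alone gave 4, 9, 6 and 6. Of the receptor peaks, Lrp5 gave 2, 3, 6 and 2, and Fzd1 gave 0, 5, 0 and 4. The peak counts of both roles thus rest largely on a few genes. Cytoplasmic components had 2 peaks from each of DMSO Pre and DMSO MCE and none from the other lists.

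**Figure D2:**
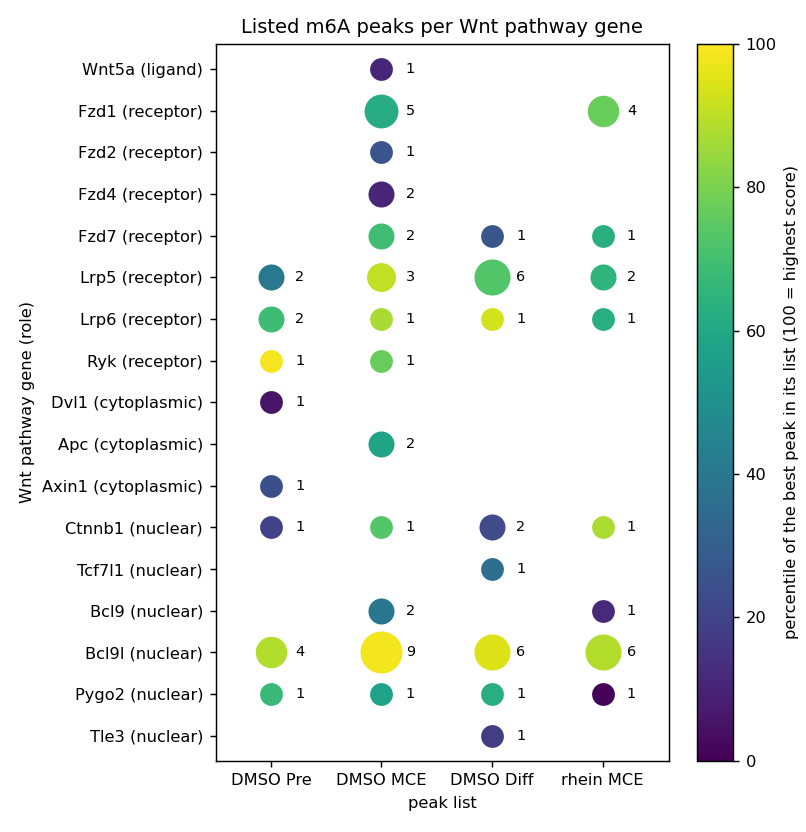
Number of listed peaks (printed, and by circle size) in each of the 17 Wnt pathway genes with a peak, by list, with the role of each gene in brackets. Colour gives the percentile of the gene's best peak within its list, with 100 for the highest score. Bcl9l, Lrp5, Lrp6, Ctnnb1 and Pygo2 have a circle in all 4 lists, and the Frizzled genes have none in DMSO Pre.

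Among the ligands, only Wnt5a, which signals mainly outside beta-catenin, had a peak. It lay in DMSO MCE alone, at chr14:28522731-28522830 in the CDS of the last exon, with its midpoint 160 bases before the end of the CDS. Its score of 5.45 ranked 4581 of 5128, near the bottom of the list. Wnt10b, the ligand best known for holding back fat cell formation, had none, and neither had Wnt9a or Wnt5b, the close relative of Wnt5a.

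The Frizzled receptors had peaks in DMSO MCE, the longest list, and few elsewhere. Fzd1, Fzd2, Fzd4 and Fzd7 had 5, 1, 2 and 2 peaks in DMSO MCE and none in DMSO Pre. DMSO Diff held a single Frizzled peak, in Fzd7, and in rhein MCE there were 4 in Fzd1 and 1 in Fzd7. At equal list length Fzd2 and Fzd4 were lost from DMSO MCE, while Fzd1 and Fzd7 were kept. No list held a peak in Fzd5, Fzd6 or Fzd8. All of these encode seven-pass receptors that bind Wnt through a cysteine-rich domain outside the cell.

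Fzd1 is a single-exon gene, and 23.2% of its 4197-base transcript was under a peak of some list. The CDS peak at chr5:4756589-4756813 had the same span in the lists of DMSO MCE, at a score of 7.21 and rank 2528 of 5128, and rhein MCE, at 11.82 and rank 704 of 3069. Both lists also had a 3′ UTR peak near the stop codon, which was the best Fzd1 peak of DMSO MCE, at 7.79 and rank 1928, and had a score of 7.22 and rank 1962 in rhein MCE. As percentiles within the lists, this site was at 62.4 in DMSO MCE and 36.1 in rhein MCE, and the CDS site at 50.7 and 77.1. A second 3′ UTR site was at 3.0 and 71.4, with ranks of 4975 and 878. Thus the shared Fzd1 sites did not all differ in the same direction between the lists.

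The other Frizzled peaks in DMSO MCE were mostly of low score. In Fzd4, which also binds norrin, both peaks lay by the stop codon, at chr7:89408290-89408339 and chr7:89408365-89408439, with scores of 5.26 and 5.43. The Fzd2 peak, at chr11:102604421-102604470 in the 5′ UTR, had a score of 6.25. Fzd7 had a 3′ UTR peak at chr1:59484749-59485023 that ranked 1569 in DMSO MCE, and peaks within that span ranked 2162 in DMSO Diff and 1137 in rhein MCE. Among these 3 genes, then, the 3′ UTR peak of Fzd7 alone was met again outside DMSO MCE.

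The co-receptors were listed in every condition. Lrp6 had 2 peaks from DMSO Pre and 1 in each other list, and Lrp5 had 2 from DMSO Pre, 3 from DMSO MCE, 6 from DMSO Diff and 2 from rhein MCE. The recurrent Lrp6 site lay at chr6:134541674-134542023 in exon 2 of 23, which encodes the start of the extracellular part. It ranked 1413 of 2824 for DMSO Pre, 669 of 5128 for DMSO MCE, 207 of 2944 for DMSO Diff and 1149 of 3069 for rhein MCE. In DMSO Pre and DMSO Diff the peak covered all 350 bases, and the 50-base peak of DMSO MCE and the 175-base peak of rhein MCE lay next to each other inside it without overlap.

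In Lrp5, 25.3% of the 5161-base transcript was under a peak of some list. The site in exon 6 of 23, at chr19:3630155-3630379, was in all 4 lists, with scores of 7.0 for DMSO Pre, 10.15 for DMSO MCE, 6.10 for DMSO Diff and 6.95 for rhein MCE. Here too the 100-base peaks of DMSO MCE and rhein MCE were adjacent and did not overlap. A second site, in the 3′ UTR at chr19:3584828-3584977, was in every list but DMSO Pre and ranked highest in DMSO MCE, at 492 of 5128. DMSO Diff differed from the other lists in Lrp5 by 3 CDS sites that no other list held, in exons 2, 3 and 8.

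Of the receptors related to tyrosine kinases, Ryk had 1 peak in DMSO Pre and 1 in DMSO MCE, and Ror1 and Ror2, the receptors for Wnt5a, had none. The Ryk peak in DMSO Pre, at chr9:102907859-102907908 in the 3′ UTR, had a score of 50.48 and ranked 38 of 2824, the best rank of any Wnt pathway peak in any list. The stretch around it is rich in T and in A, as printed above. The DMSO MCE peak lay elsewhere in the same 3′ UTR, at chr9:102907159-102907283, and ranked 1185 of 5128. So the peak of highest rank was in a single list and did not recur.

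Cytoplasmic components were listed rarely. Axin1, a scaffold of the destruction complex, had 1 CDS peak in DMSO Pre at chr17:26143314-26143513 that ranked 2147 of 2824. Dvl1, a Dishevelled gene, had 1 CDS peak in DMSO Pre at chr4:155847827-155847901 that ranked 2675. Apc, the other scaffold, had 2 peaks in DMSO MCE in its long last exon, with midpoints 504 and 379 bases before the CDS end and scores of 6.91 and 7.54. None of these was met in a second list, and Dvl2, Dvl3, Axin2 and Csnk1e had no peak.

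Nuclear components held the most consistently listed gene. Bcl9l, which links beta-catenin to Pygopus, had 4 peaks for DMSO Pre, 9 for DMSO MCE, 6 for DMSO Diff and 6 for rhein MCE, and 29.5% of its 6771-base transcript was under a peak of some list. Its transcript held 33 GGAC, of which 17 lay under a peak. In DMSO MCE, DMSO Diff and rhein MCE the highest-ranked Wnt pathway peak was in Bcl9l.

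The recurrent Bcl9l sites lay side by side in exon 8 of 10, a coding exon of 2287 bases. The upstream site, chr9:44506106-44506505, ranked 327 of 2824 for DMSO Pre, 81 of 5128 for DMSO MCE, 151 of 2944 for DMSO Diff and 355 of 3069 for rhein MCE. The middle site, chr9:44506731-44507180, ranked 388, 434, 250 and 990 in the same order. The downstream site, chr9:44507206-44507430, had the same span in every list and ranked 652, 1437, 419 and 2863. In each list the upstream site ranked first and the downstream site last, and in rhein MCE the downstream site was among the lowest peaks of the list.

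**Figure D3:**
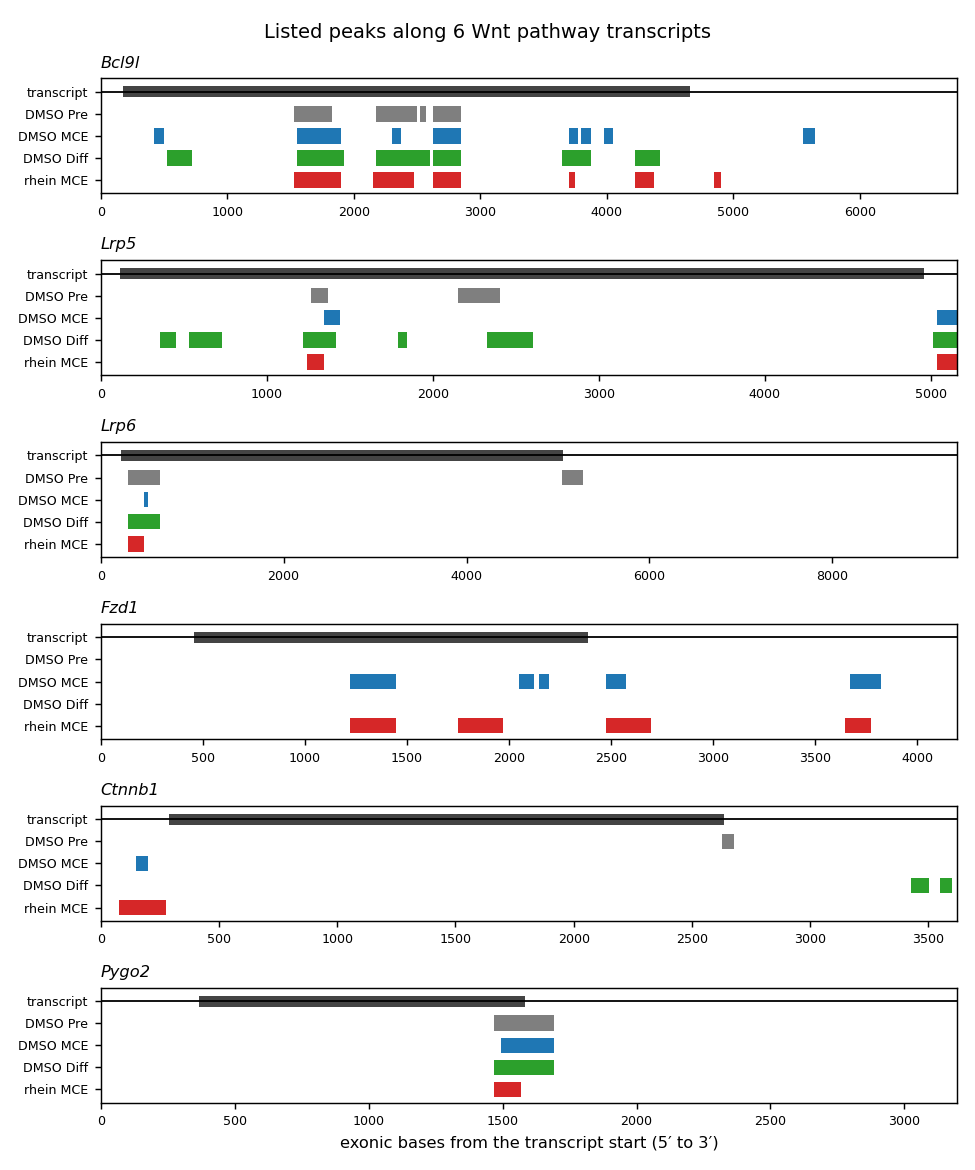
Listed peaks along 6 Wnt pathway transcripts, in exonic bases from the transcript start, with the CDS as a thick bar and the peaks of each list in a row of its own. Peaks of DMSO MCE at alternative first exons of Bcl9l and Lrp5 lie outside the transcripts drawn and are left out. The 3 Bcl9l sites in all lists lie between bases 1524 and 2848, and the Ctnnb1 peaks lie at different ends of the transcript.

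Pygo2, the more broadly expressed Pygopus gene, had 1 peak in each list within chr3:89433398-89433622. In DMSO Pre and DMSO Diff the peak covered this whole span across the stop codon, in DMSO MCE it covered 200 of the 225 bases, and in rhein MCE it covered the first 100 and ended before the stop codon. It ranked 923 of 2824 for DMSO Pre, 2164 of 5128 for DMSO MCE, 1103 of 2944 for DMSO Diff and 3035 of 3069 for rhein MCE. The site was thus in every list and close to the threshold of the rhein list, and it was lost there when that list was cut to 2824 peaks. Bcl9, the paralogue of Bcl9l, had 2 peaks by its stop codon in DMSO MCE and 1 in rhein MCE, and of these the peaks on the CDS side overlapped, at chr3:97204937-97204986 and chr3:97204887-97204961.

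Ctnnb1, which encodes beta-catenin, had a peak in every list but at different places. In DMSO Pre it lay just after the stop codon, at chr9:120959510-120959559, with a score of 5.45. In DMSO MCE it lay in the 5′ UTR at chr9:120933550-120933599, with a score of 8.73, and in rhein MCE a 5′ UTR peak of 200 exonic bases that ran over the first intron had a score of 17.22 and ranked 393 of 3069. The pair of DMSO Diff peaks lay in the 3′ UTR, with midpoints 830 and 942 bases after the CDS end, and scored 6.15 and 6.35. Hence Ctnnb1 was in all 4 lists as a gene, with a site in common in DMSO MCE and rhein MCE only.

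The last Ctnnb1 exon overlaps an exon of Ulk4 on the opposite strand. The DMSO Diff list gave 2 minus-strand peaks there, within chr9:120960274-120960473, beside the pair on the Ctnnb1 strand. Whether the calling used the strand of the reads is not given in the sources used here, so these peaks could not be assigned with certainty. The same holds for the 5′ UTR peak of Bcl9l at chr9:44482825-44482949, opposite which the DMSO MCE list gave a peak in Gm47205.

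Among the TCF factors and Groucho co-repressors of the set, only Tcf7l1 and Tle3 had a peak, each in DMSO Diff alone. Tcf7l1 had 1 peak in the 3′ UTR at chr6:72627228-72627327, with a score of 7.26 and rank 1886 of 2944. Tle3, a Groucho co-repressor, had 1 in the 3′ UTR at chr9:61418320-61418369, with a score of 6.04 and rank 2421. Tcf7l2 and Lef1, the other TCF/LEF factors of the set, and Tle1 had none. The restriction to DMSO Diff did not hold for relatives outside the set. Tle4 had 1 peak in DMSO MCE and none in DMSO Diff, and Aes had 1 in each of these lists. Tle2 and Tcf7 had none in any list.

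The antagonists were without a listed peak. These were Rnf43 and Znrf3, ubiquitin ligases that remove Frizzled from the membrane, Sfrp1 and Sfrp2, secreted proteins that bind Wnt, and Dkk2 and Dkk3 of the Dickkopf family. Celsr2 and Vangl2 of the planar polarity branch had none either. With 6 and 2 genes, these absences were not set apart from the background. In some list, 16.6% of all protein-coding genes and 27.7% of the long ones had a peak.

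The second question was which Wnt pathway genes differed between stages. Of 15 genes with a peak in DMSO Pre or DMSO MCE, 2 were in DMSO Pre only, 6 in both and 7 in DMSO MCE only. Over all protein-coding genes with a peak in either list, 13.4% were in DMSO Pre only, 34.4% in both and 52.2% in DMSO MCE only. The 7 genes were Wnt5a, Fzd1, Fzd2, Fzd4, Fzd7, Apc and Bcl9, so that 4 of the 7 were Frizzled receptors. The count was close to the background share. At equal list length 2 genes were in DMSO Pre only, 6 in both and 3 in DMSO MCE only (Fzd1, Fzd7 and Apc), against 28.9%, 36.1% and 35.1% of all.

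Between DMSO MCE and DMSO Diff, 7 of 15 genes were in DMSO MCE only (Wnt5a, Fzd1, Fzd2, Fzd4, Ryk, Apc and Bcl9), 6 in both, and Tcf7l1 and Tle3 in DMSO Diff only. The shares over all protein-coding genes with a peak in either list were 52.7%, 35.5% and 11.8%. At equal list length the counts were 3, 6 and 2, against 35.8%, 39% and 25.2% of all. Between DMSO Pre and DMSO Diff, with lists of similar length, 3 genes were in DMSO Pre only, 5 in both and 3 in DMSO Diff only, against 32.2%, 37.6% and 30.2% of all. The first 3 were Ryk, Axin1 and Dvl1, and the last 3 were Fzd7, Tcf7l1 and Tle3. Set against rhein MCE, DMSO Diff had 2 genes of its own (Tcf7l1 and Tle3), 6 in common, and 2 were in rhein MCE only (Fzd1 and Bcl9), where all protein-coding genes gave 26.7%, 39.1% and 34.2%.

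With rhein at the MCE stage, 5 of 13 genes were in DMSO MCE only, 8 in both and 0 in rhein MCE only, against 47.7%, 39.9% and 12.4% over all protein-coding genes with a peak in either list. The 5 genes were Wnt5a, Fzd2, Fzd4, Ryk and Apc. Their best peaks in DMSO MCE ranked 4581 for Wnt5a, 3787 for Fzd2, 4601 for Fzd4, 1185 for Ryk and 2136 for Apc, of 5128. At equal list length 3 genes were in DMSO MCE only (Ryk, Apc and Pygo2), 6 in both and 1, Bcl9, in rhein MCE only, against 30.7%, 45% and 24.4% of all.

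Of the 563 protein-coding genes with a peak in all 4 lists (15.5% of those with a peak in any), 5 were Wnt pathway genes, or 29.4% of the 17. They were the co-receptors Lrp5 and Lrp6, and beta-catenin, Bcl9l and Pygo2 of the nuclear complex. No ligand, Frizzled receptor or cytoplasmic component was among them. The DMSO Diff peaks of Ctnnb1 lie opposite Ulk4 and could not be assigned with certainty. Pygo2 was lost from rhein MCE at equal list length. The 15.5% covers genes of any length, and the difference was not tested.

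Peak by peak, overlap between lists was partial. The 80 peaks of the 4 lists merged into 47 sites, of which 31 were in 1 list, 7 in 2, 3 in 3 and 6 in 4. Sites in a single list numbered 5 from DMSO Pre, 16 from DMSO MCE, 8 from DMSO Diff and 2 from rhein MCE. The sites in all lists were the 3 in Bcl9l and those in Lrp5, Lrp6 and Pygo2, and those in 3 lists were in Bcl9l, Lrp5 and Fzd7.

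Of the 17 rhein MCE peaks, 12 overlapped a DMSO MCE peak, or 70.6% (46.9 to 86.7), against 53.3% of all rhein MCE peaks. At equal list length this was 7 of 15, or 46.7%, against 46.9% of all, so the share above that of all peaks was not kept. In the other direction 12 of 31 DMSO MCE peaks overlapped, or 38.7% (23.7 to 56.2), against 32.0% of all. Between DMSO Pre and DMSO MCE, 6 of 13 peaks of the former (46.2%, 23.2 to 70.9) and 6 of 31 of the latter (19.4%, 9.19 to 36.3) were shared. Between DMSO MCE and DMSO Diff it was 10 of 31 (32.3%, 18.6 to 49.9) and 9 of 19 (47.4%, 27.3 to 68.3). Over all peaks the shares were 44.8% and 24.8% for the former pair and 26% and 45.8% for the latter. Each of these values, and those for rhein, lay within the interval of the Wnt pathway share.

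The score column was used to rank peaks within each list, with percentile 100 for the highest. The median percentile of Wnt pathway peaks was 50 for DMSO Pre, 47.7 for DMSO MCE, 46.2 for DMSO Diff and 39.8 for rhein MCE, where 50 is the middle of a list. Peaks with a score over 9.97, which corresponds to an adjusted p-value of 0.001 if the score is minus log2 of it, numbered 5 for DMSO Pre, 5 for DMSO MCE, 5 for DMSO Diff and 4 for rhein MCE. These were 38.5%, 16.1%, 26.3% and 23.5% of the Wnt pathway peaks, and over all peaks the shares were 32.2%, 18.8%, 31.0% and 30.7%. Wnt pathway peaks were spread over the whole range of ranks in each list, as the plot of ranks shows.

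**Figure D4:**
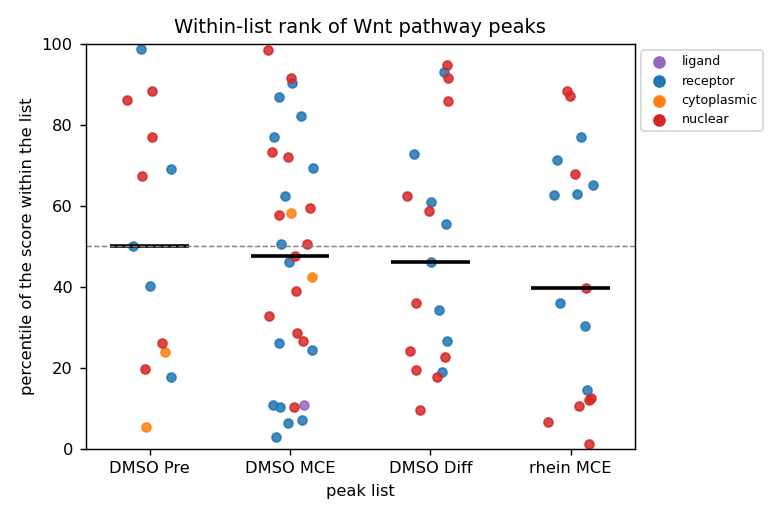
Percentile of the score within its list (0 to 100, 100 highest) for each Wnt pathway peak, by list and coloured by the role of its gene; black lines are medians and the dashed line is the middle of a list. Medians lie between 39.8 and 50, and the peaks run from 1.12 to 98.7.

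The place of the peaks on the transcript was taken from their midpoints. In the CDS lay 76.9% (49.7 to 91.8) of the Wnt pathway peaks for DMSO Pre, 54.8% (37.8 to 70.8) for DMSO MCE, 68.4% (46.0 to 84.6) for DMSO Diff and 64.7% (41.3 to 82.7) for rhein MCE. The values over all placed peaks were 55.5%, 54.4%, 55.2% and 52.8%, each within the Wnt pathway interval. The 3′ UTR held 23.1%, 29%, 31.6% and 29.4% of the Wnt pathway peaks, against 39.0%, 38.3%, 38.8% and 39.7% of all. By the part named in the lists themselves, the 3′ UTR held 46.2%, 32.3%, 52.6% and 35.3% of the Wnt pathway peaks, against 47.9%, 48.4%, 49.1% and 49.8% of all, so the values for DMSO Pre and DMSO Diff depend on the transcript used. The peaks placed differently there were those of Lrp5 and Pygo2. No difference in place between Wnt pathway peaks and all peaks was detectable with these numbers.

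**Figure D5:**
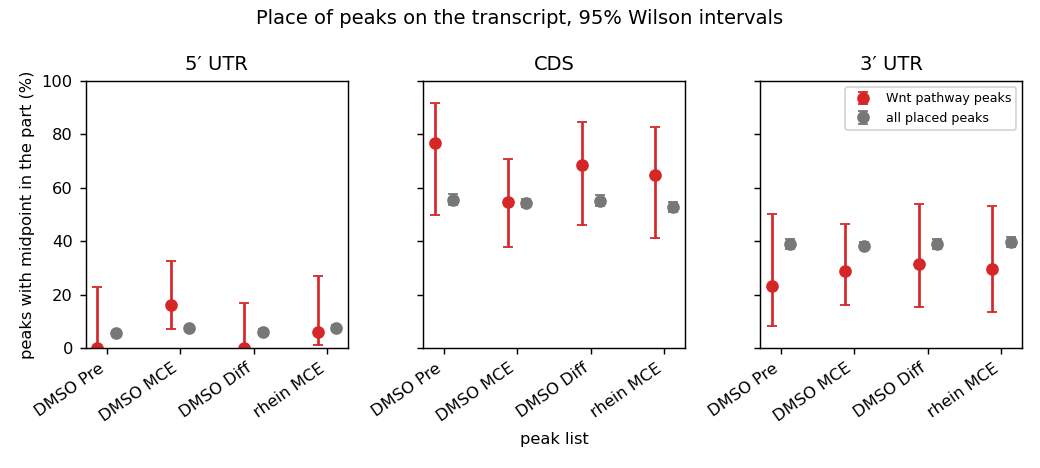
Share of peaks (%) with their midpoint in the 5′ UTR, CDS and 3′ UTR by list, for Wnt pathway peaks (red) and all placed peaks (grey); bars are 95% Wilson intervals. The red intervals are wide, and each holds the grey value.

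In the 5′ UTR lay 5 of 31 Wnt pathway peaks in DMSO MCE (16.1%, 7.09 to 32.6), against 7.28% of all placed peaks. DMSO Pre had 0 of 13, which allows a share of up to 22.8% by the same interval, DMSO Diff 0 of 19 (up to 16.8%) and rhein MCE 1 of 17. All 5 sites lay near a transcript start, in Bcl9l and Lrp5 from base 1 of an alternative first exon, in Fzd2 and Fzd7 from base 26 and in Ctnnb1 from base 151. Of these sites the Ctnnb1 site alone was in another list, rhein MCE. At scores over 9.97, DMSO MCE had 0 Wnt pathway peaks in the 5′ UTR.

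Around the stop codon, within 200 bases, were 23.1% (8.18 to 50.3) of the peaks for DMSO Pre, 25.8% (13.7 to 43.2) for DMSO MCE, 21.1% (8.51 to 43.3) for DMSO Diff and 17.6% (6.19 to 41.0) for rhein MCE. Over all placed peaks the shares were 22.0%, 25%, 23.7% and 22.9%. The window set the value in some lists. Within 100 bases DMSO MCE had 12.9% against 14.4% of all, and within 400 bases rhein MCE had 41.2% against 37.5% of all. Genes with a site there included Pygo2, Bcl9, Fzd4, Ctnnb1 and Wnt5a. Of the 47 sites, 11 were of this kind. By part of the transcript 26 of the 47 lay in the CDS, 16 in the 3′ UTR and 5 in the 5′ UTR, and of the 9 sites in at least 3 lists 7 lay in the CDS.

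Long exons held most Wnt pathway peaks. In exons of over 400 bases lay 76.9% for DMSO Pre, 83.9% for DMSO MCE, 63.2% for DMSO Diff and 82.4% for rhein MCE, against 80.8%, 80.7%, 77.2% and 77.6% of all placed peaks. The Lrp5 peaks of DMSO Diff, the list with the lowest share, lay in exons of 185 to 464 bases. In the last exon lay 30.8% (12.7 to 57.6), 71.0% (53.4 to 83.9), 47.4% (27.3 to 68.3) and 64.7% (41.3 to 82.7), and this count includes the single-exon genes Fzd1, Fzd2 and Fzd7, which had no peak in DMSO Pre. The share in the last exon over all placed peaks was between 57.4% and 59.4%.

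GGAC occurred in 69.2% (42.4 to 87.3) of the Wnt pathway peaks for DMSO Pre, 45.2% (29.2 to 62.2) for DMSO MCE, 57.9% (36.3 to 76.9) for DMSO Diff and 82.4% (59.0 to 93.8) for rhein MCE. Over all placed peaks the shares were 53.2%, 52.9%, 48.2% and 52.2%, so that rhein MCE alone had an interval above the value for its list. That interval treats peaks of the same gene as independent. Of the rhein MCE peaks, 6 were in Bcl9l and 4 in Fzd1, and all of these held GGAC. The rest, in Fzd7, Lrp5, Lrp6, Ctnnb1, Bcl9 and Pygo2, were mixed, so the difference may rest on Bcl9l and Fzd1. Peaks differ in length, and the median Wnt pathway peak covered 225 exonic bases from DMSO Pre, 100 from DMSO MCE, 200 from DMSO Diff and 150 from rhein MCE. The longer GGACT occurred in 30.8%, 19.4%, 36.8% and 29.4%, against 23.3%, 23.0%, 21.0% and 22.2% of all. Per kilobase, GGAC was found 7.94 times under Wnt pathway peaks and 4.55 times elsewhere in the same transcripts, a ratio of 1.74. This ratio was not taken over all peaks, so it cannot be said whether it is particular to these genes. By gene, Bcl9l with 17 of 33, Lrp5 with 15 of 61 and Fzd1 with 6 of 21 GGAC under peaks gave most of the 56, and Ctnnb1 had none of its 24 under a peak.

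The gene symbols given in the lists were checked against the exons. Rows with the symbol of a Wnt pathway gene numbered 17 from DMSO Pre, 34 from DMSO MCE, 23 from DMSO Diff and 22 from rhein MCE, of which 13, 28, 17 and 16 lay in the exons of that gene. By symbol, Dkk3 would have had a peak in every list. Those rows lay on the strand opposite to Dkk3, and all but 1 of them, which was in no gene's exons, lay in the exons of Usp47. The rows under Sfrp2 lay in Gm24584, those under Dvl2 in Phf23 and that under Wnt5b in Gm44317. In the other direction, the Apc peaks were listed as Srp19, the Lrp5 peaks at the 3′ end as Ppp6r3 and the Tcf7l1 peak as Gm15401. A count by symbol would thus have given inhibitors with a peak in every list and would have missed Apc and Tcf7l1.

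A wider list of 118 other Wnt pathway genes gave a similar order of roles for inhibitors and ligands. Of these 118, 43 (36.4%) had a peak in at least 1 list, with 11 for DMSO Pre, 34 for DMSO MCE, 19 for DMSO Diff and 24 for rhein MCE. Over all protein-coding genes the share was 16.6% in any list, and 6.89%, 12.5%, 6.69% and 7.45% in the same order. The shares of the ligand genes (9.09%) and receptor genes (18.2%) in the wider list were below and near that 16.6%. None of 13 further inhibitors, 2 of 22 ligand genes and 2 of 11 receptor genes had a peak, against 17 of 29 cytoplasmic components, 7 of 14 nuclear components, 7 of 18 polarity genes and 8 of 11 target genes. Among the 40, 3 of 7 cytoplasmic components and 7 of 12 receptors had a peak. Thus the high share of receptors among the 40 was not met in the wider list, where the cytoplasmic side was well represented. Peaks in all 4 lists were held by 4 of the 43, against 15.5% of all protein-coding genes with a peak in any list. The higher share among the 40 was thus not met in the wider list. The 4 were Csnk1a1 and Csnk1d, casein kinases that act on the pathway, Ppp2ca, the catalytic subunit of protein phosphatase 2A, and Jun, a target gene.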

How the data were processed

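MeRIP-seq gave 5 IP and 5 input libraries. Per the submitters' processing notes and the study's methods, the authors used Trim Galore 0.6.5 for trimming, aligned reads to mm10 with HISAT2 2.1.0, removed duplicates with Picard 2.23.5, filtered with SAMtools 1.9 at a mapping quality of 30, called peaks with exomePeak2 and annotated them with ChIPseeker 1.26. The deposited column headed as a log2 fold change (lowest value 4.19, highest 735) was taken for a score, minus log2 of the adjusted p-value by its behaviour, and used only to rank and filter. On that reading the lowest score would stand for 0.0549 in DMSO Pre and 0.052 in DMSO Diff, against 0.05 in DMSO MCE, so the reading is not certain. Which IP and input entered each list, and the strand setting, are not given in the sources used here.

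Peaks were placed on GENCODE M21 exons of the same strand, protein-coding transcripts first and then the longest (96.5% to 97.6% placed). Sharing required 1 exonic base, and peaks linked through any list were merged into 1 site. Members, roles and gene lists were chosen with earlier results of these data known. Every member is named, with positions for genes in all lists, the best peak of each list, ligands and differences under rhein, and other positions were chosen after their values were seen. Placement was tested on simulated data. The tools were pysam 0.24.0, Matplotlib 3.10.9, SciPy 1.17.1, pandas 2.3.3 and NumPy 2.4.6 under Python 3.11.15.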

Additional observations from a re-analysis of the deposited data

Results flagged for a closer look

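Fzd1 and Bcl9 had opposite differences between rhein and DMSO at the 2 stages. Rhein minus DMSO, the Fzd1 peak count differed by -1 at the MCE stage (5 and 4) and by 4 at the differentiation stage (0 and 4). For Bcl9 the differences were -1 (2 and 1) and 1 (0 and 1). Without replicates, this difference was not tested. The rhein lists held the same peaks in both genes, so the values at the stages differ through the DMSO lists alone.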

How the results depend on the processing

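Of 140 alternative values, 106 stayed within the limits set for them and 34 moved. Most moves came with stricter scores. At scores over 9.97 (an adjusted p-value below 0.001 if the score is minus log2 of it), each list kept 3 Wnt pathway genes. There were 5 peaks in each DMSO list and 4 in rhein MCE. At scores over 33.2 (below 1e-10 on the same reading), 1 gene with 1 peak was left in DMSO Pre and in DMSO MCE, and 0 in DMSO Diff and rhein MCE. At scores over 9.97 the DMSO MCE peaks were 0% in the 5′ UTR and 80% in the CDS, and the DMSO Diff peaks 100% in the CDS and 0% in the 3′ UTR. Genes in 1 list of a pair only then numbered 1 for DMSO Pre and 1 for DMSO MCE in that pair, 0 for DMSO MCE and 0 for DMSO Diff in theirs, and 2 for DMSO MCE and 2 for rhein MCE in theirs. At equal list length, DMSO MCE had 17 peaks, 3 genes absent from DMSO Pre, 3 absent from DMSO Diff and 3 absent from rhein MCE, while 1 gene was in rhein MCE and not in DMSO MCE, and 46.7% of rhein MCE peaks overlapped a DMSO MCE peak. The share near the stop codon was 12.9% in DMSO MCE within 100 bases and 41.2% in rhein MCE within 400 bases. Placing peaks on any transcript with a CDS, an alternative chosen after seeing the data, gave 3′ UTR shares of 38.5% for DMSO Pre and 47.4% for DMSO Diff and CDS shares of 61.5% and 52.6%, within the intervals of the values reported; over all placed peaks the 3′ UTR shares were then 40.1% and 39.5%. No paired analysis was possible because the labels give no replicate numbers and each condition has 1 IP and 1 input. With 13 to 31 peaks a list, differences in place inside the intervals given were not detectable.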

Other observations

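Of the 5 preadipocyte markers examined, 3 had exonic peaks. Pdgfra, the receptor that marks fat cell progenitors, had 5 peaks from DMSO Pre, 2 from DMSO MCE, 3 from DMSO Diff and 1 from rhein MCE. Pdgfrb had 2 from DMSO Pre and 1 from DMSO MCE, and Thy1 had 4 from DMSO MCE, 5 from DMSO Diff and 1 from rhein MCE. Dlk1 and Cd34 had none.

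Among the targets of the pathway outside the 40 genes, Myc had 1 peak from DMSO MCE, 2 from DMSO Diff and 1 from rhein MCE, and Jun had 2 from DMSO Pre, 5 from DMSO MCE, 4 from DMSO Diff and 4 from rhein MCE. Wisp2 had 4 peaks in DMSO MCE and none in the other lists. These genes were named after their values had been seen.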
